A study of Mus musculus with 6 samples.

Results

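The mitochondrial carriers of the SLC25 family were examined in articular cartilage of knockout (KO) and wildtype (WT) mice. Members were all genes whose name begins with Slc25a, except Slc25a37, Slc25a38 and pseudogene copies, which gave 44 of the 34709 genes measured. Of the 44, the 37 whose mean level reached 0.5 FPKM were tested, among 15373 genes in all. FPKM is the number of fragments per kilobase of a transcript relative to library depth, so levels of different genes can be compared on it.

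Libraries were made from cartilage mRNA, with 3 labelled KO and 3 labelled WT. Total counts ran from 52268311 to 63331135 per library. KO mice carried a knockout of a single gene. The methods describe KO mice bought from a supplier, and aged male KO and WT mice that were littermates. The sample labels gave cartilage as the tissue and the genotype, with neither an age nor a treatment. The paper gives the same age for the KO and WT cartilage that was sequenced, that of its aged mice. The labels did not say whether replicates came from separate animals. The paper states that its experiments used independent samples, without saying whether each was a separate animal. The p-values therefore measure only the spread between these libraries. KO replicates 2 and 3 resembled each other far more than any other pair (Pearson's r of 0.996 across genes, against 0.980 to 0.990 for the other pairs) and were counted as 1 sample. The comparison therefore had 5 samples, 2 KO and 3 WT, a count that departs from the paper's statement. Results of the 6 libraries as labelled are given beside that comparison.

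SLC25 proteins sit mostly in the inner mitochondrial membrane, which is otherwise closed to charged metabolites. Each is built from repeats of the same short unit, and by alternating between an open side and a closed side it moves a substrate across, often in exchange for another. The family brings ADP and phosphate in for ATP synthesis, carries citrate, malate and aspartate between compartments, and supplies the matrix with cofactors such as NAD, coenzyme A and glutathione. Cartilage has little blood supply, and its chondrocytes are known for relying largely on glycolysis.

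The tissue label was set against marker genes first. The chondrocyte genes Col2a1 (12.4 to 21.3 FPKM), Acan (13.2 to 22.8 FPKM) and Prg4, the lubricin gene of the joint surface (402 to 1034 FPKM), were present in every library, while Matn1, Matn3 and Col9a1 were under 1 FPKM throughout. The whole chondrocyte list summed to 678 to 1500 FPKM in KO and 670 to 893 FPKM in WT, most of it Prg4. Sox9 was at 0.865 to 2.81 FPKM. Marker sums of erythroid cells and neutrophils were far higher. Erythroid markers summed to 24953 to 60709 FPKM in KO and 71710 to 108566 FPKM in WT, with 9 of 9 lower in every KO library. Neutrophil markers summed to 52478 to 63702 FPKM in KO and 27608 to 44661 FPKM in WT, with 11 of 12 higher in every KO library. B cell markers were lower in every KO library in 10 of 10 genes (90.5 to 141 FPKM summed in KO, 286 to 320 FPKM in WT), and so were 4 of 7 adipocyte markers, 2 of 7 bone markers and 1 of 5 endothelial markers. Summed skeletal muscle markers ran from 6.30 to 286 FPKM in KO and from 56.6 to 514 FPKM in WT. Proliferation markers (229 to 289 FPKM in KO, 240 to 300 FPKM in WT) and the chondrocyte list had no gene whose groups were apart. The part of these cells in the carrier values below was not tested. In such bulk samples, fewer cells of a type and less RNA per cell cannot be told apart.

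The regions in front of the genes are shown before the values. RefSeq entries on GRCm38.p6 were found for 29 of the 37 tested carriers, and those without one included Slc25a51, Slc25a26, Slc25a27, Slc25a32, Slc25a35, Slc25a44 and Slc25a46. Shown here are the 250 bases before the start of the most abundant carrier, Slc25a5, and of 5 carriers with low p-values between KO and WT, each 5′ to 3′ on the strand of its gene. Capitals mark matches, on either strand, to a GC box, a CCAAT box, a GATA motif or a TATA box, whose letters are given with their counts in the next paragraph.
Slc25a5 (chrX:36795347-36795596, plus strand): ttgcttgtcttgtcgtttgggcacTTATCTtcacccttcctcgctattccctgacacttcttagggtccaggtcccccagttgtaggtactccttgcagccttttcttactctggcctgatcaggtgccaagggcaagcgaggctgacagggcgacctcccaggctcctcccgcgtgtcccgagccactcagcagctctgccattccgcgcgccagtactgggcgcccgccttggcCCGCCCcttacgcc
Slc25a24 (chr3:109122899-109123148, plus strand): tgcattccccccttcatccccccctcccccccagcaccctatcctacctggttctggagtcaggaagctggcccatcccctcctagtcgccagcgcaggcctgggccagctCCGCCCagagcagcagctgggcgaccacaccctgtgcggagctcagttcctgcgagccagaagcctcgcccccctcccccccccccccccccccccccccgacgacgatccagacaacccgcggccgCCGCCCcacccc
Slc25a29 (chr12:108835877-108836126, minus strand): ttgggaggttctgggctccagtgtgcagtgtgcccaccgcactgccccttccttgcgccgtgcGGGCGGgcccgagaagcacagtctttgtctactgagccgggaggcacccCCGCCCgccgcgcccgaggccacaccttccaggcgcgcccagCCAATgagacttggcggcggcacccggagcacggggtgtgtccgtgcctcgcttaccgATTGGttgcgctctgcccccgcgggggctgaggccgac
Slc25a39 (chr11:102407518-102407767, minus strand): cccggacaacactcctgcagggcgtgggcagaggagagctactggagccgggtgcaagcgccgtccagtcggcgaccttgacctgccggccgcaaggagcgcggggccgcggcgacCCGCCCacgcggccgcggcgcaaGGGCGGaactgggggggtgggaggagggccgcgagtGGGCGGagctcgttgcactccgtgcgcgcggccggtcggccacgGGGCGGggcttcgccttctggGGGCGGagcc
Slc25a42 (chr8:70212282-70212531, minus strand): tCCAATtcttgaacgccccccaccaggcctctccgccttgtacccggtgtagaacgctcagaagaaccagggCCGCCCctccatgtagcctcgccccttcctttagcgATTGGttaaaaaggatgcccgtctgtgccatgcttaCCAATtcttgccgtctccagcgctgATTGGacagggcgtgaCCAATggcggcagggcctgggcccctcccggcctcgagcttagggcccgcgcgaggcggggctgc
Slc25a21 (chr12:57197473-57197722, minus strand): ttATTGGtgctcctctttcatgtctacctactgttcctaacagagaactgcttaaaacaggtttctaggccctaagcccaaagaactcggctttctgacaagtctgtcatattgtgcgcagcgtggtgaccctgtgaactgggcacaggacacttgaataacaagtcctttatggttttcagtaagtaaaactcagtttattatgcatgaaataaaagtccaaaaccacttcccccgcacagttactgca
The window of Slc25a39 had a GC content of 77.2% and that of Slc25a21 of 43.2%. The median was 57.6% over the carriers' windows and 52.4% over those of all genes with an entry, whatever their level.

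A GC box (GGGCGG) was present in 22 of the 29 carriers with an entry (75.9%), against 35.4% of 27025 genes. The 27025 are all genes with an entry, whatever their level, while these carriers had reached 0.5 FPKM. The sets compared here thus differ in expression too. A CCAAT box was seen for 17 (58.6%, against 37.5%) and the E-box CACGTG for 6 (20.7%, against 6.9%). An ETS site (CCGGAAGT) was found for Slc25a20 (3.4%, against 3.2%), and the core of an NRF1 site (GCGCATGC) for 0 carriers (against 2.6%). A GATA motif, spelled AGATAA, matched in front of Slc25a5 and Slc25a53 (6.9%, against 11.4%). The TATA box (TATAAA) was found for Slc25a21, in a further window that is not shown (3.4%, against 14.3%). These are matches of letters in the window, searched on both strands, and genes with several starts had several windows. By the deposited positions Slc25a29 lies head to head with Slc25a47 on chromosome 12, with 162 bases between them. The annotations differ on the start of Slc25a47, since its RefSeq window is farther away, at chr12:108850879-108851128.

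The 37 tested carriers spanned a wide range of levels. Their median was 4.23 FPKM, near the 4.90 FPKM of all tested genes, with 12 carriers under 2 FPKM, 13 from 2 to under 10 FPKM and 12 at 10 FPKM or more. Slc25a5, the main ADP/ATP carrier of most tissues, stood first with a mean of 190 FPKM over the 6 libraries and took 33.0% to 39.8% of the summed level of all tested carriers. It was followed by Slc25a3, the phosphate carrier (45.8 FPKM), Slc25a39, the glutathione carrier (36.4 FPKM), Slc25a11, the oxoglutarate/malate carrier (33.3 FPKM), and Slc25a51, the NAD carrier (33.3 FPKM). Slc25a5 was above the others in every library, while neighbours in the rest of this order overlapped over the libraries. Of the 7 carriers under 0.5 FPKM, Slc25a43 had the highest mean (0.411 FPKM), followed by Slc25a2 (0.238 FPKM) and Slc25a18 (0.202 FPKM), and Slc25a34, Slc25a48, Slc25a31 and Slc25a54 were at 0.0692 FPKM or less. Of these, Slc25a48, Slc25a31 and Slc25a54 were listed at 0 in at least 1 library.

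**Figure D1:**
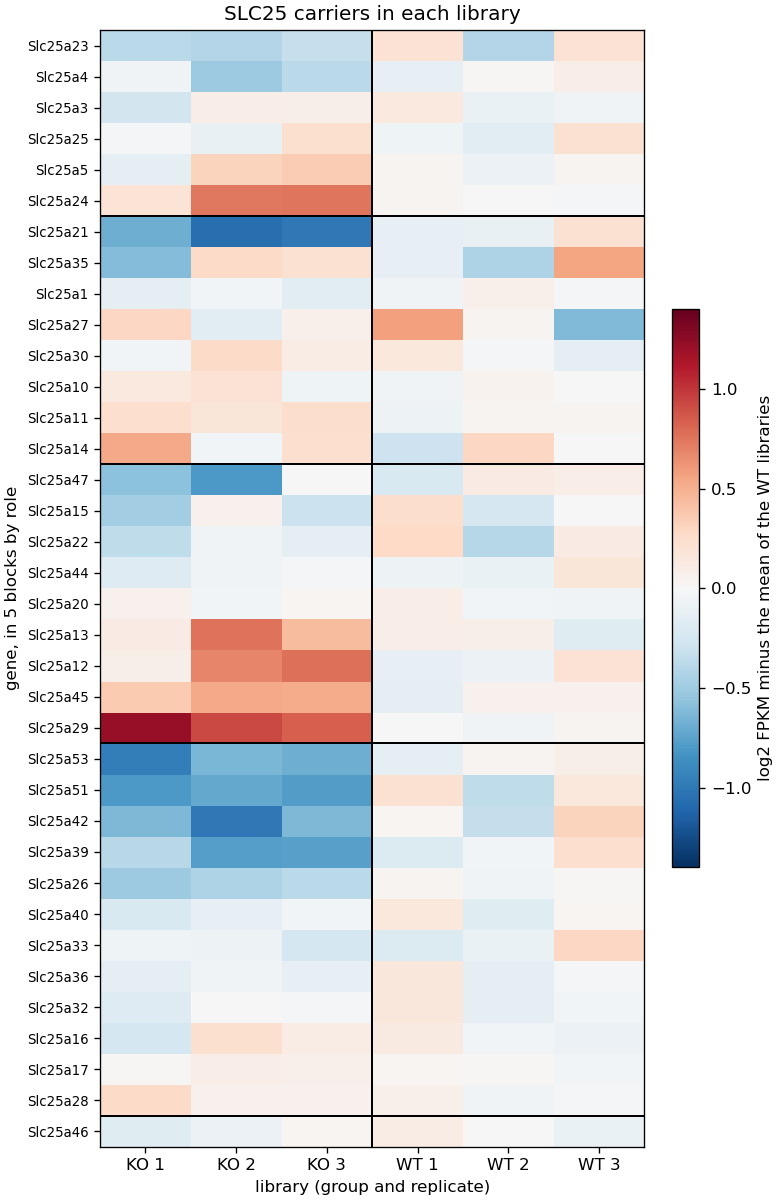
Heat map of 36 tested carriers (rows, in 5 blocks by role: adenine nucleotides and phosphate, carboxylates and uncoupling-related, amino acids and carnitines, cofactors, nucleotides and metals, and the outer membrane carrier Slc25a46) in the 6 libraries (columns). Colour gives log2 FPKM minus the mean of the WT libraries, red above and blue below it. Slc25a51, Slc25a53, Slc25a42 and Slc25a39 are blue and Slc25a29, Slc25a45 and Slc25a24 red in every KO library, while KO replicates 2 and 3 depart from KO replicate 1 for Slc25a24, Slc25a12 and Slc25a5.

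To ask which carriers differed between KO and WT, counts of all 15373 genes were fitted with edgeR's quasi-likelihood test on the 5 samples, with Benjamini-Hochberg adjustment over all of them. No carrier passed an adjusted p-value of 0.05 (0 of 37), as did none of all genes (0.0%). At an unadjusted p-value under 0.05 there were 8 carriers of 37 (21.6%), against 13.7% of all genes (2106). Of the 8, 5 were lower in KO (13.5% of 37, against 6.07% of all genes) and 3 higher (8.11%, against 7.63%). DESeq2 on the same samples called 4 carriers (Slc25a51, Slc25a29, Slc25a53 and Slc25a21, 10.8%) at an adjusted p-value under 0.05, where it called 5.72% of all genes (879). With the 6 libraries as labelled, edgeR called 3 carriers (Slc25a51, Slc25a21 and Slc25a53, 8.11%), against 3.71% of all genes (570), but that fit counts KO replicates 2 and 3 separately. In 11 of 37 carriers (29.7%) the KO and WT libraries did not overlap in FPKM, 5 with KO above and 6 with KO below, against 25.0% of all genes. Over the 37 the median log2 difference, KO minus WT, was -0.077, with 22 lower and 15 higher, and over all genes it was -0.016.

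**Figure D2:**
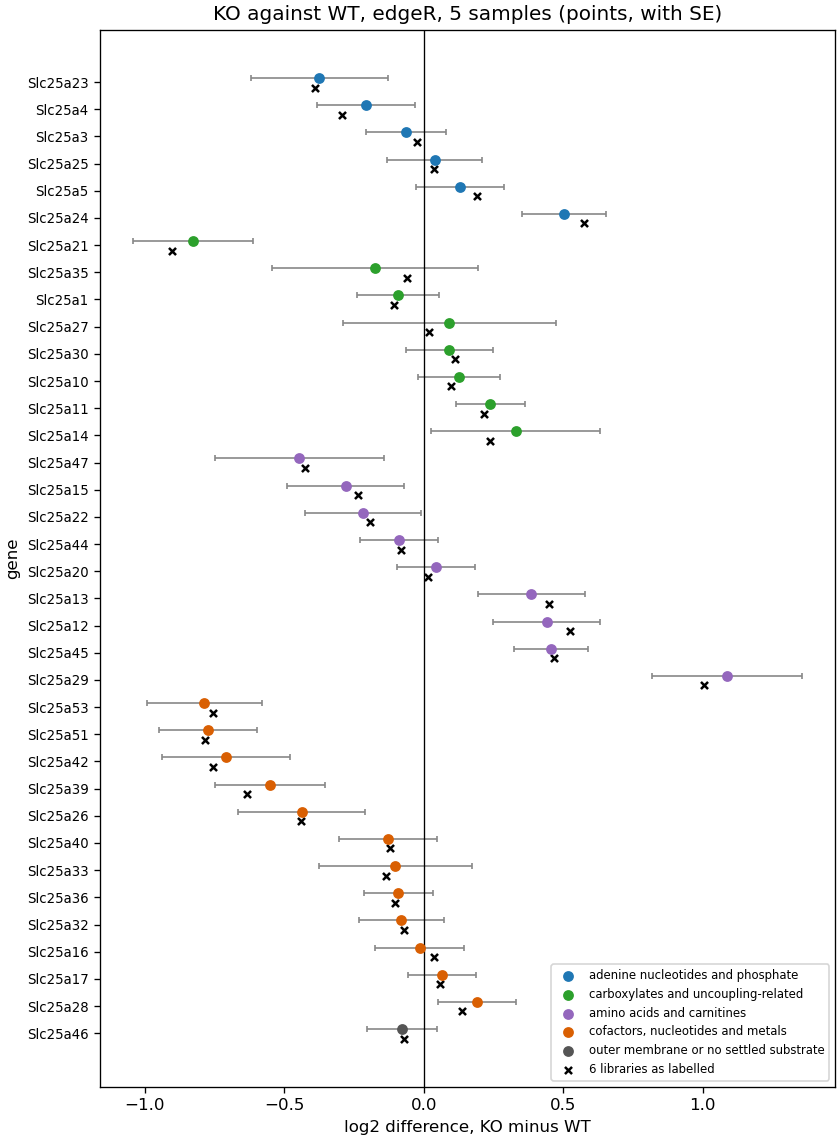
Log2 difference, KO minus WT, of 36 tested carriers (rows, grouped by role in colour) in the edgeR fit of 5 samples, with bars for the SE. Crosses give the same with the 6 libraries as labelled. Slc25a29 (1.09) is the only carrier beyond 1, Slc25a21 (-0.83) lies lowest, and 10 of the 12 carriers of cofactors, nucleotides and metals shown lie left of 0.

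Carriers of cofactors, nucleotides and metals held 4 of the 8 low p-values. The group as fixed includes Slc25a53, whose substrate is not settled and which holds 1 of the 4. All 13 were tested, 11 were lower and 2 higher in KO, where 52.5% of all genes were lower. The 4 low p-values were all of genes lower in KO, as for 6.07% of all genes, and the median log2 difference of the 13 was -0.10. Their summed level was 107, 101 and 98.9 FPKM in KO replicates 1, 2 and 3, and 139, 124 and 148 FPKM in WT replicates 1, 2 and 3. Slc25a51 and Slc25a39 make up most of that sum, so it largely restates this pair.

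Slc25a51 (chr4:45395923-45408766, position as deposited, likewise for those below, with the build taken as GRCm38 from a match to its annotation), which brings NAD into the matrix, had 23.8, 25.3 and 24.2 FPKM in KO replicates 1, 2 and 3, and 48.0, 32.5 and 46.0 FPKM in WT. KO libraries lay close together and below each WT library, of which WT replicate 2 was the nearest. KO samples averaged 24.2 ± 0.684 FPKM (SD, n = 2), and WT samples 42.2 ± 8.43 FPKM (SD, n = 3). By edgeR the log2 difference was -0.77 (SE 0.177, edgeR adjusted p = 0.171), and with the 6 libraries as labelled the adjusted p-value was 0.0367. Slc25a53 (chrX:136981116-137038300), a related carrier with no settled substrate, had 0.640, 0.798 and 0.776 FPKM in KO and 1.15, 1.28 and 1.32 FPKM in WT, near the lower end of what was tested. Groups did not overlap, and the log2 difference was -0.79 (SE 0.206, edgeR adjusted p = 0.188, 0.0461 with the 6 libraries as labelled). Slc25a53 overlaps Zcchc18 on the opposite strand, and whether strand was used in counting is not given in the sources used here.

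Slc25a39 (chr11:102402985-102407544), which imports glutathione, was at 33.6, 25.7 and 26.0 FPKM in KO and at 38.6, 42.8 and 51.6 FPKM in WT. All KO libraries were below the WT libraries, with KO replicate 1 the nearest to them. Its log2 difference was -0.55 (SE 0.198, edgeR adjusted p = 0.289). It was -0.81 without KO replicate 1 and -0.32 without KO replicates 2 and 3. Erythroid markers were also lower in every KO library, and were at 60709 FPKM in KO replicate 1 against 25218 and 24953 FPKM in KO replicates 2 and 3, but their part in the Slc25a39 value was not tested. The paralog Slc25a40 was far lower, from 1.07 to 1.22 FPKM in KO and from 1.11 to 1.38 FPKM in WT, and overlapped between groups.

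Slc25a42 (chr8:70184340-70212305), a carrier of coenzyme A, had 1.50, 1.17 and 1.51 FPKM in KO and 2.37, 1.84 and 2.89 FPKM in WT. Each KO library lay below each WT library, with a log2 difference of -0.71 (SE 0.229, edgeR adjusted p = 0.250). Slc25a26, which carries S-adenosylmethionine, did not overlap either, from 0.698 to 0.764 FPKM in KO and from 0.959 to 1.02 FPKM in WT, but with a log2 difference of -0.44 its p-value was 0.0953 (edgeR, unadjusted). It overlaps Lrig1 on the opposite strand. Mitoferrin-2, Slc25a28, an iron importer, was at 13.3, 11.5 and 11.4 FPKM in KO and at 11.5, 10.7 and 10.8 FPKM in WT. These values overlapped, and the log2 difference of 0.19 (SE 0.140) was 0.02 without KO replicate 1. Others of the group were the carriers of folate (Slc25a32), pyrimidine nucleotides (Slc25a33 and Slc25a36), peroxisomal cofactors (Slc25a17), and Slc25a16. Along with Slc25a40, these had log2 differences between -0.13 and 0.07, and all 6 overlapped between groups.

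**Figure D3:**
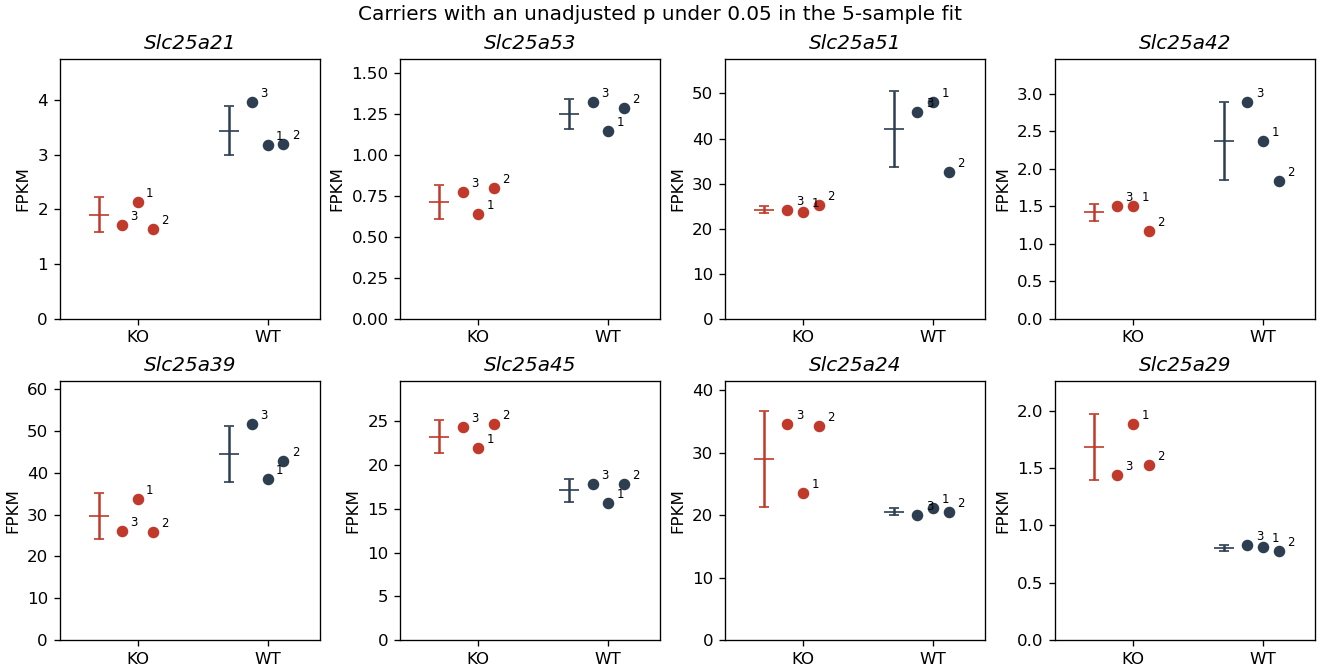
FPKM of the 8 carriers with an unadjusted p-value under 0.05, 1 panel each, with points for the KO (red) and WT (dark) libraries, numbered by replicate. The bar beside each group gives the mean ± SD of 2 KO samples, with replicates 2 and 3 averaged, or 3 WT samples, and each axis starts at 0. KO lies below WT for Slc25a21, Slc25a53, Slc25a51, Slc25a42 and Slc25a39 and above it for Slc25a45, Slc25a24 and Slc25a29.

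Carriers of amino acids and carnitines went both ways. Of 12 members 9 were tested, 5 higher and 4 lower in KO, with 2 at an unadjusted p-value under 0.05, where 13.7% of all genes were. Slc25a29 (chr12:108825873-108835883), which transports basic amino acids, had the largest log2 difference of the family. It was at 1.88, 1.53 and 1.44 FPKM in KO and at 0.811, 0.780 and 0.830 FPKM in WT. The 3 WT libraries were nearly equal, and every KO library was above them. The log2 difference was 1.09 (SE 0.268, edgeR adjusted p = 0.178), and it was 0.84 without KO replicate 1. Its neighbour Slc25a47 had 0.399 to 0.699 FPKM in KO and 0.601 to 0.755 FPKM in WT, with a log2 difference of -0.45 (SE 0.303) and overlapping groups.

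Slc25a45 (chr19:5877808-5885766), also placed among amino acid and carnitine carriers, had 21.9, 24.7 and 24.4 FPKM in KO and 15.6, 17.8 and 17.8 FPKM in WT. KO libraries were all above WT libraries, with a log2 difference of 0.46 (SE 0.133, edgeR adjusted p = 0.216). With 1 library left out at a time it lay between 0.38 and 0.52.

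The aspartate/glutamate carriers Slc25a12 and Slc25a13 serve the malate-aspartate shuttle, which moves reducing equivalents of NADH into mitochondria. Slc25a12 was at 5.77, 8.74 and 9.28 FPKM in KO and at 5.03, 5.14 and 6.25 FPKM in WT, with KO replicate 1 inside the WT range. Its log2 difference was 0.44 (SE 0.191, edgeR adjusted p = 0.374), falling to 0.16 without KO replicates 2 and 3. Slc25a13 was at 3.69, 5.79 and 4.64 FPKM in KO and at 3.63, 3.63 and 3.03 FPKM in WT. Its groups were apart, though by little for KO replicate 1, and the log2 difference was 0.39 (SE 0.193, edgeR adjusted p = 0.452). Slc25a20, which exchanges carnitine and acylcarnitines for fatty acid oxidation, had 5.35, 5.00 and 5.23 FPKM in KO and 5.47, 5.02 and 4.97 FPKM in WT. Its log2 difference of 0.04 (SE 0.140) changed sign in some of the alternatives. The ornithine carrier Slc25a15, the glutamate carrier Slc25a22 and Slc25a44, a carrier of branched-chain amino acids, had log2 differences of -0.28, -0.22 and -0.09 and overlapped between groups.

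Among carriers of adenine nucleotides and phosphate, 6 of 8 members were tested, 3 higher and 3 lower in KO. Slc25a24 (chr3:109123149-109168457), the calcium-regulated carrier of ATP-Mg and phosphate, was at 23.5, 34.2 and 34.6 FPKM in KO and at 21.1, 20.5 and 20.1 FPKM in WT. WT libraries were tightly grouped, KO replicate 1 was just above them and KO replicates 2 and 3 well above. The log2 difference was 0.50 (SE 0.152, edgeR adjusted p = 0.228), 0.71 without KO replicate 1 and 0.27 without KO replicates 2 and 3. Its relatives Slc25a23 (-0.37, SE 0.246) and Slc25a25 (0.04, SE 0.171) overlapped between groups. Slc25a23 and Slc25a25 overlap the coding genes Crb3 and Naif1 on the opposite strand.

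No difference beyond the spread was detected for the ADP/ATP carriers. Slc25a5 had 162, 220 and 227 FPKM in KO and 182, 168 and 182 FPKM in WT, with a log2 difference of 0.13 (SE 0.158, edgeR adjusted p = 0.810). KO replicate 1 lay under the WT libraries and KO replicates 2 and 3 above them, and the difference was 0.30 without KO replicate 1 and -0.052 without KO replicates 2 and 3. Slc25a4, the isoform of heart and skeletal muscle, had 33.4, 24.3 and 26.5 FPKM in KO and 31.8, 34.8 and 36.8 FPKM in WT, with a log2 difference of -0.21 (SE 0.176, edgeR adjusted p = 0.707). It was -0.48 without KO replicate 1 (edgeR adjusted p = 0.156) and 0.030 without KO replicates 2 and 3. KO replicates 2 and 3 were the lowest libraries, and these also had the lowest summed skeletal muscle markers, at 6.57 and 6.30 FPKM, whose part in the value was not tested. Slc25a3 was at 38.6, 49.1 and 48.7 FPKM in KO and at 50.7, 43.2 and 44.6 FPKM in WT. Its groups overlapped, with KO replicate 1 the lowest library and WT replicate 1 the highest, and the log2 difference was -0.06 (SE 0.144).

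Carriers of carboxylates and the uncoupling-related members numbered 9, of which 8 were tested, with 5 higher and 3 lower in KO. Slc25a21 (chr12:56712634-57197472), the oxodicarboxylate carrier, which takes part in lysine and tryptophan breakdown, was at 2.14, 1.65 and 1.71 FPKM in KO and at 3.17, 3.19 and 3.96 FPKM in WT. Groups were well apart, with KO replicate 1 the nearest to WT. The log2 difference was -0.83 (SE 0.215, edgeR adjusted p = 0.187, 0.0433 with the 6 libraries as labelled), and with 1 library left out at a time it lay between -1.07 and -0.71. The gene overlaps Pax9 on the opposite strand.

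Slc25a11, the other carrier of the malate-aspartate shuttle, had 36.3, 34.8 and 36.4 FPKM in KO and 29.4, 31.6 and 31.6 FPKM in WT. Its libraries did not overlap, but the log2 difference of 0.24 (SE 0.124) had an adjusted p-value of 0.471 by edgeR. The citrate carrier Slc25a1, which exports citrate for lipid synthesis, had 9.90, 10.6 and 9.72 FPKM in KO and 10.4, 11.3 and 10.7 FPKM in WT, with a log2 difference of -0.09 (SE 0.146). The dicarboxylate carrier Slc25a10 had 7.41, 7.75 and 6.47 FPKM in KO and 6.54, 6.99 and 6.70 FPKM in WT, with a log2 difference of 0.13 (SE 0.147). Both overlapped between groups. The uncoupling-related Slc25a14, Slc25a27 and Slc25a30, and Slc25a35, had log2 differences of 0.33, 0.09, 0.09 and -0.17, with overlapping groups, and those of Slc25a27 and Slc25a35 had the widest errors of the family (SE 0.382 and 0.369). Slc25a35 overlaps Rangrf on the opposite strand. Slc25a46, an outer membrane member involved in mitochondrial shape, ranged from 7.08 to 8.10 FPKM in KO and from 7.42 to 8.51 FPKM in WT. It overlaps the coding gene B930094E09Rik on the opposite strand.

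**Figure D4:**
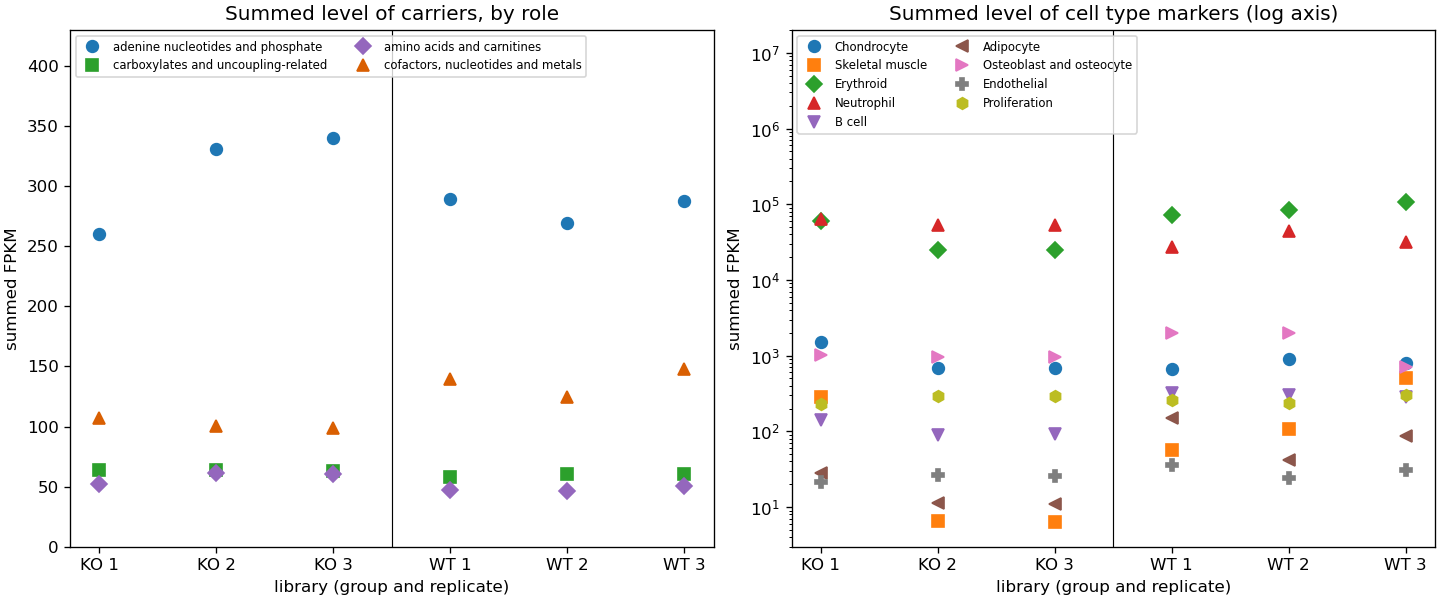
Summed FPKM per library of the tested carriers in 4 roles (left, linear axis from 0) and of 9 lists of cell type markers (right, log axis), with 1 symbol per role or list. The cofactor, nucleotide and metal carriers are at 98.9 to 107 FPKM in KO and 124 to 148 FPKM in WT, and erythroid and B cell markers are lower, and neutrophil markers higher, in each KO library than in each WT library.

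Ratios within a library were taken for 6 pairs of related carriers, since they do not depend on library scaling. Coding sequences of the pairs were 55.0% to 77.6% identical, the highest for Slc25a4 and Slc25a5. The Slc25a4 to Slc25a5 ratio was 0.206, 0.110 and 0.117 in KO and 0.175, 0.208 and 0.202 in WT, with KO replicate 1 among the WT libraries. Slc25a24 to Slc25a23 was 20.6, 30.7 and 29.2 in KO and 12.3, 18.3 and 11.7 in WT, higher in each KO library, with a difference of 0.84 in log2 ratio. Slc25a39 to Slc25a40 was 31.3, 22.4 and 21.4 in KO and 28.0, 38.6 and 40.8 in WT, which overlapped. By exact permutation tests (two-sided, 5 samples) the p-values of these 3 ratios were 0.6, 0.2 and 0.3, and those of Slc25a12 to Slc25a13, Slc25a22 to Slc25a18 and Slc25a33 to Slc25a36 were 1. With 10 arrangements of the samples the smallest p-value possible is 0.1, so no ratio could pass 0.05, and the lowest adjusted p-value over the 6 was 0.9. Slc25a18 was under 0.5 FPKM, so its ratio is imprecise.

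The carriers also shared features of sequence. Coding sequences of the 37 tested carriers encoded 274 to 677 residues, with a median of 318. The carrier signature (proline, any residue, aspartate or glutamate, any pair of residues, lysine or arginine) was present at least 3 times in 23 of them, against 2.33% of 21482 other genes. It was found in 0 places in Slc25a51, Slc25a53 and Slc25a46. Slc25a51 and Slc25a53 were 50.0% identical in coding sequence, a value for which no baseline of unrelated genes was taken.

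Other transport and shuttle genes of the mitochondrial membranes were compared next, from a list of 35 of which 32 were tested. In KO 19 were higher and 13 lower, with a median log2 difference of 0.080. By edgeR 0 had an adjusted p-value under 0.05 (lowest 0.196) and 4 had an unadjusted p-value under 0.05 (12.5%, against 13.7% of all genes). All 4 were higher in KO, where 7.63% of all genes were. Mcu, the pore of the calcium uniporter, had 6.05, 6.86 and 7.33 FPKM in KO and 5.32, 4.39 and 4.47 FPKM in WT, with a log2 difference of 0.49 (SE 0.133). Mcu was the 1 gene of the list that passed with the 6 libraries as labelled (adjusted p-value 0.0444 by edgeR), and also with DESeq2 on the 5 samples (adjusted p-value 0.0219).

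KO libraries lay above WT libraries for Mcu, and also for Sfxn5 and Cpt1b. They lay below WT libraries for Timm10, Cpt1c and Ucp2. Over all tested genes, groups did not overlap in 25.0%. The sideroflexin gene Sfxn5, a relative of the mitochondrial serine transporters, had 2.08, 4.31 and 3.97 FPKM in KO and 1.91, 1.60 and 1.81 FPKM in WT, with KO replicate 1 close to WT and a log2 difference of 0.81 (SE 0.251). The difference was 1.19 without KO replicate 1 (edgeR adjusted p = 0.0358, with the spread of the lone KO sample taken from WT) and 0.31 without KO replicates 2 and 3. Cpt1b, the muscle form of the enzyme that makes acylcarnitines for Slc25a20, had 1.48, 1.18 and 1.29 FPKM in KO and 0.691, 0.888 and 0.921 FPKM in WT, with a log2 difference of 0.72 (SE 0.279). Of the other carnitine shuttle enzymes, Cpt1a had a mean of 13.2 FPKM and a log2 difference of -0.09. Cpt2 (0.17) and Crat (-0.07) overlapped between groups, as did Cpt1a, while Cpt1c was at -0.46. These enzymes and the uncoupling protein gene Ucp2 had unadjusted p-values above 0.05 by edgeR. So had the pyruvate carrier, the outer membrane pores, the malate-aspartate shuttle enzymes and the carrier import genes. Ucp1, Ucp3 and Ckmt1 were under 0.5 FPKM and not tested, and Ucp1 was listed at 0 in all 6 libraries.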

How the data were processed

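Articular cartilage mRNA of 3 KO and 3 WT libraries was measured, with groups and replicate numbers taken from the sample titles. The knocked-out gene and a few others are not reported here, though they remain in fits and counts. According to the labels, oligo(dT) beads were used to take mRNA, which was made into strand-specific libraries with molecular identifiers, sequenced as read pairs on an Illumina NovaSeq. The submitters' processing notes name cutadapt 1.9, HISAT2 2.0.4, UMI-tools, StringTie 1.3.4d, DESeq2 and edgeR, with no role given. The authors deposited 1 table of 34709 genes with FPKM values, computed within each library, and estimated counts. The deposited estimated counts were whole numbers, so none was rounded, but 6596 were at 4, against 4170 at 3 and 2332 at 5, so a count was not taken as 1 read pair. The genome build is not given in the sources used here. Of the genes, 31664 had the same position in GENCODE M21, an annotation of GRCm38, among them 36 of the 44 carriers.

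KO replicates 2 and 3 had a noise ratio (variance between libraries over that of Poisson sampling) of 5.77, against 23.6 to 88.0 for the other pairs, and their counts were averaged and rounded, and their FPKM averaged. All genes whose mean reached 0.5 FPKM were tested with edgeR 4.0.16 (R 4.3.3), TMM scaling and Benjamini-Hochberg adjustment over all of them. The procedure was tested on simulated data whose spread was taken from the 3 WT libraries. KO replicate 1 had noise ratios of 73.5 and 71.7 with KO replicates 2 and 3, against 23.6 to 47.1 between WT libraries. That simulation therefore does not cover the spread between the KO samples. The SE of a log2 difference was computed from its F statistic. At a floor of 3 counts, a count of 0 allows 0.0474 to 0.0574 CPM (relative to all counts of a library), for counting error alone.

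Carriers and lists were chosen with earlier results of these data known. Values in every library are given for carriers with an unadjusted p-value under 0.05 or called with the 6 libraries as labelled, for the 5 most abundant, and for 12 named by role. Partner genes are named where the unadjusted p-value was under 0.05. Promoter windows came from RefSeq, and coding sequences, translated to search the carrier signature, from GENCODE M21. Alternatives were the 6 libraries as labelled, with and without a replicate block, median-of-ratios scaling, DESeq2 1.42.0, limma 3.58.1 with pseudocounts of 1 and 0.1 FPKM, no filter, a minimum of 5 FPKM, and each library left out.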

Additional observations from a re-analysis of the deposited data

How the results depend on the processing

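On the 5 samples, 0 carriers passed the adjusted threshold of 0.05. There were 3 with the 6 libraries as labelled and 4 with DESeq2, and 0 with median-of-ratios scaling, both limma fits, no filter and a minimum of 5 FPKM. Leaving out 1 library gave 0 to 1, the 1 being Slc25a24 without KO replicate 1 (adjusted p-value 0.0487 by edgeR), a fit whose p-values were added after seeing the data and that takes the spread of the lone KO sample from the WT libraries. Under the alternatives, adjusted p-values spread from 0.0036 to 0.487 for Slc25a51, from 0.00747 to 0.487 for Slc25a29, from 0.0135 to 0.511 for Slc25a21 and from 0.00934 to 0.514 for Slc25a53. Over all genes the calls went from 0 to 570 with the 6 libraries as labelled, 879 with DESeq2, 21 with no filter, 352 without KO replicate 1 and 9 without KO replicates 2 and 3. The causes were not tested. The replicate block, on the 6 libraries as labelled, gave 0 carriers and a median log2 difference of -0.069, and Mcu had an adjusted p-value of 0.138 by edgeR there. Deviations of same-numbered libraries from their group means had correlations of -0.207, -0.184 and 0.001. KO replicates 2 and 3 were so alike that these values are tied to each other. They therefore cannot decide whether the libraries were paired.

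The median log2 difference of the carriers was -0.077. It was -0.094 with limma at a pseudocount of 0.1 FPKM, -0.031 with no filter, which adds 7 carriers, -0.0026 at a minimum of 5 FPKM, which leaves 17, and -0.052 without KO replicates 2 and 3, and leaving out 1 library gave -0.077 to -0.032. Without WT replicate 1 it was -0.032.

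The 8 carriers with an unadjusted p-value under 0.05 kept their direction in each of the 15 alternatives that tested them. Among 36 carriers, sign changes occurred in 10 others, in 21 of 521 values, none of them called. Without KO replicates 2 and 3, the log2 difference was -0.052 for Slc25a5, 0.0063 for Slc25a33 and 0.030 for Slc25a4. Slc25a20 was at -0.0026 at a minimum of 5 FPKM. Slc25a16 was at 0.036 with the 6 libraries as labelled, 0.030 with the replicate block and 0.026 with no filter. In fits that left out 1 library, the ranges were -0.35 to 0.16 for Slc25a35, -0.15 to 0.39 for Slc25a27, -0.043 to 0.16 for Slc25a25, -0.21 to 0.061 for Slc25a33, -0.047 to 0.066 for Slc25a20, -0.15 to 0.0085 for Slc25a44, -0.082 to 0.048 for Slc25a3 and -0.046 to 0.13 for Slc25a16. Ratios that changed sign were Slc25a33 to Slc25a36 (0.00050 in log2 ratio on the 5 samples, -0.026 with the 6 libraries, -0.17 at the lowest without 1 library), Slc25a12 to Slc25a13 (-0.058 to 0.23 without 1 library) and Slc25a22 to Slc25a18 (-1.37 to 0.22 without 1 library).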
